A study of Homo sapiens with 22 samples.

Results

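The hypoxia-inducible factors (HIFs) switch on a broad set of genes, and 38 of these that lie outside glycolysis were followed here among the 25343 genes of each file. The members were listed by gene symbol, and all 38 were found. Polyadenylated RNA was sequenced in 22 libraries of human renal cancer cell lines, all grown in RPMI with 10% FBS and harvested at 80% confluence. The line 786-O, the line 786-M1A and the line OS-LM1 gave 2 libraries each, with no treatment named. For the remaining 16 libraries, 786-M1A was put through CRISPR interference (CRISPRi): a guide RNA leads a Cas9 that cannot cut, fused to a repressor, to a chosen DNA site. The non-targeting control (SC) has 6 of them, iMAE-1.1 has 4, iMAE-1.2 has 4 and iMAE-126 has 2. From earlier work 786-M1A is known as a metastatic derivative of 786-O. The titles do not say how OS-LM1 relates to 786-O, so its comparisons cannot be told apart from differences of line background. The labels name no target of the iMAE guides, no clone and no separate culture for the replicates, so each p-value measures the spread between these libraries, which may be technical.

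HIF is a pair of proteins, an oxygen-regulated alpha subunit (HIF1A or EPAS1, also called HIF-2 alpha) and the constant partner ARNT. In normal oxygen the prolyl hydroxylases EGLN1 and EGLN3 mark the alpha subunit, and VHL directs its destruction. VHL is lost in most clear cell renal carcinomas, 786-O included, so that EPAS1 stays active there without hypoxia. The 38 genes cover pH control, collagen processing, secreted hormones, mitochondrial turnover, lipid and glycogen stores, histone demethylation, transcriptional feedback and growth signalling.

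HIF recognises a short core sequence, and the start regions of some members hold copies of it. RefSeq start-site windows of the build GRCh38.p14 (250 bases before to 50 after the start) were on hand for 29 of the 38 members, in 37 windows, since some genes have more than 1 start. The core ACGTG, or CACGT on the other strand, was in 19 of the 37 windows (51.4%) and in 21.4% of all 35116 windows of the same length. The core GCGTG, or CACGC on the other strand, was in 59.5% of the members' windows and 36.5% of all windows. Of the 29 members 12 had no ACGTG in any window, among them TGFA, STC2, CA12, LOXL1, VLDLR, SAP30, RORA and ADM. The 250 bases before the start are printed 5′ to 3′ on the gene's own strand for 5 genes, picked among those with a match of either core, with matches in capitals. CA9 and ANKRD37 were at or near 0 outside OS-LM1, LOX had the largest rise in 786-M1A, and ADM and CITED2 moved in opposite directions under both iMAE-1 guides.
CA9 (chr9:35673678-35673927, plus strand): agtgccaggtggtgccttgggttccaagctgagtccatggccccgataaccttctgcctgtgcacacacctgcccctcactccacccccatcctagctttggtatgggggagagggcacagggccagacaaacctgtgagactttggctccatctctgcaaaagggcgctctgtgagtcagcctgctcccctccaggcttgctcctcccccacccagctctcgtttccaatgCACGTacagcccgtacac
ANKRD37 (chr4:185396591-185396840, plus strand): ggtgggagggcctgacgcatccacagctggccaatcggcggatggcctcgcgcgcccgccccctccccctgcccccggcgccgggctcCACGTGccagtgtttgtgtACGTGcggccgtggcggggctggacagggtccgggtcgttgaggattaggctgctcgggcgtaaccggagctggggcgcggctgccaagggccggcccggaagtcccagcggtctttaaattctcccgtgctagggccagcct
LOX (chr5:122078260-122078509, minus strand): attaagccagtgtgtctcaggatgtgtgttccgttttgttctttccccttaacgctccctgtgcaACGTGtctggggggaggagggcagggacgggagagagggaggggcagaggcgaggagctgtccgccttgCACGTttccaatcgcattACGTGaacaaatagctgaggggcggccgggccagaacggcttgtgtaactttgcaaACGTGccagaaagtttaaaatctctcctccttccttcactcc
ADM (chr11:10304823-10305072, plus strand): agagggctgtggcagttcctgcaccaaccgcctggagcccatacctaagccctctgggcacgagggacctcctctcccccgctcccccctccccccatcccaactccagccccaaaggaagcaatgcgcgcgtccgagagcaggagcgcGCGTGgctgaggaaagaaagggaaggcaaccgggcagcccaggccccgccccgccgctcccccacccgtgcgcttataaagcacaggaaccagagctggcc
CITED2 (chr6:139374649-139374898, minus strand): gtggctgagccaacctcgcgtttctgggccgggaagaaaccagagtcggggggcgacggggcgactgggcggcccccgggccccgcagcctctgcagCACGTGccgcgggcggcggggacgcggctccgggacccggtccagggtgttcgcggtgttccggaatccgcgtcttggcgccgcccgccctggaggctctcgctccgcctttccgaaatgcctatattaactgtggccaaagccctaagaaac
The CA9 sequence has 1 match, that of LOX has 4, and that of ADM has a single GCGTG and no ACGTG. In ANKRD37 and CITED2 the run CACGTG reads the same on both strands and counts as 2 overlapping matches. LOX and CITED2 have 3 windows each, of which 1 is shown. A match is a description of the letters, not evidence of binding.

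The total of counts ran from 9062605 to 52706490 per library, with the deepest in 786-M1A and the shallowest in iMAE-1.2. All 8 renal carcinoma markers checked were present in every group, with a summed level of 6307 to 10218 CPM (read counts scaled to the library's total, not to gene length). Leukocyte markers summed to 2.60 to 13.7 CPM with CD3E at 0 counts, endothelial markers to at most 3.28 and fibroblast markers to at most 3.56. The CRISPRi libraries fell apart by the mean length of the genes their reads came from: 3528 to 3716 bases in SC replicates 1 and 2 and iMAE-126 (set A), and 3264 to 3395 bases in SC replicates 3 to 6, iMAE-1.1 and iMAE-1.2 (set B). Neither set is in the labels, and 786-M1A, at 3929 to 3982 bases, belongs to neither. The 8 iMAE-1 libraries also grouped against their guide labels: iMAE-1.1 replicates 1 and 2 moved with iMAE-1.2 replicates 3 and 4 (block 1), and iMAE-1.1 replicates 3 and 4 with iMAE-1.2 replicates 1 and 2 (block 2). Deviations from the guide means correlated at 0.11 to 0.69 across genes between guides within a block, and at −0.60 to −0.17 between guides of different blocks. In bulk RNA, fewer cells of a kind and less RNA per cell cannot be told apart.

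Levels differed widely among the 38 genes. Per length, as TPM (the deposited transcript share, which divides by gene length), the highest mean in 786-O was that of the growth-arrest gene NDRG1 at 553, followed by the collagen crosslinker LOXL2 at 392 and the lysyl hydroxylase PLOD2 at 369. In 786-M1A the order was PLOD2 (517), the epidermal growth factor receptor ligand TGFA (402) and the cell cycle driver CCND1, cyclin D1 (399.7 TPM). In OS-LM1 it was the carbonic anhydrase CA12 (624), LOXL2 (611) and PLOD2 (589). The last 4 places in 786-O and 786-M1A were held by NDUFA4L2, ANKRD37, CA9 and RORA, each at a mean TPM of 1.11 or less. TPM is a share of the library, and short symbols that share mitochondrial sequence, the MTRNR2L family among them, took 2.70% to 21.6% of it, so the tests below use counts.

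**Figure D1:**
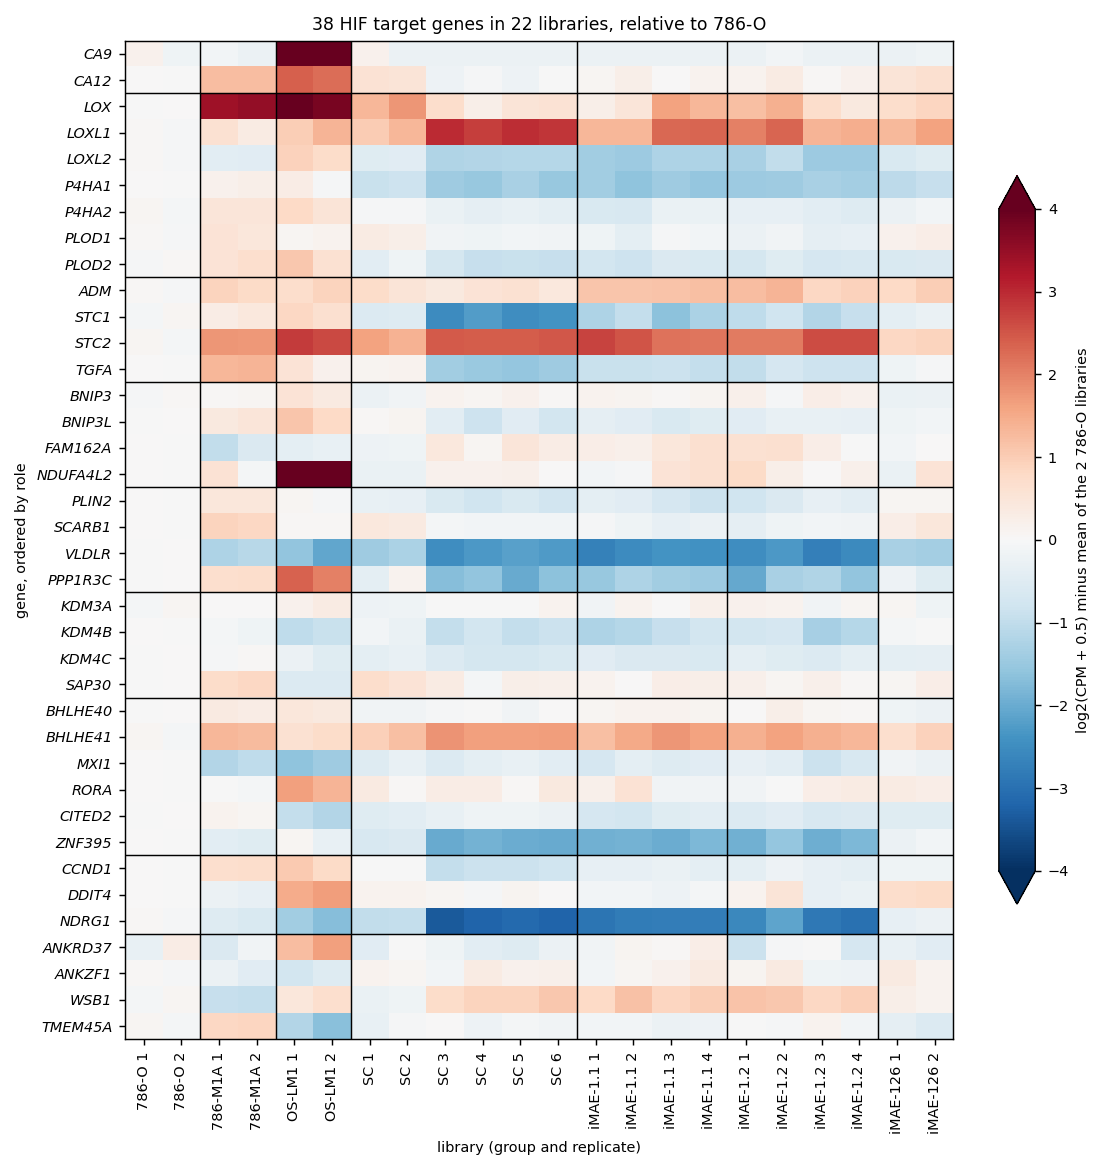
Each row is 1 of the 38 HIF target genes in order of role (horizontal lines part the roles) and each column 1 library; colour is log2(CPM + 0.5) minus the mean of the 2 786-O libraries, red higher and blue lower, clipped at 4. LOX is red in 786-M1A and OS-LM1, CA9 and NDUFA4L2 are red in OS-LM1 alone, and NDRG1, STC1, TGFA and ZNF395 are bluer in SC replicates 3 to 6 than in SC replicates 1 and 2.

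The metastatic derivative 786-M1A differed from 786-O in 25 of 38 members, of which 16 were higher and 9 lower. Across all genes tested 31% (14.7% higher, 16.3% lower) passed the same test (edgeR's quasi-likelihood test at a Benjamini-Hochberg adjusted p under 0.05). The members' median log2 fold change was 0.31, against −0.02 over all genes. CA9, NDUFA4L2, ANKRD37 and RORA, at trace levels in both lines, are among the 38. Without them 25 of 34 were called, with a median of 0.36. Secreted factors and collagen enzymes made up 7 of the 16 that rose, and 3 of the 4 lipid and glycogen genes rose. Both transcription factors or cofactors that fell, MXI1 and ZNF395, and the stress genes NDRG1 and DDIT4 were among the 9 that were lower.

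LOX, the lysyl oxidase that crosslinks collagen, stood at 2.52 and 2.59 CPM in 786-O and 31.8 and 34.4 in 786-M1A. Its log2 fold change was 3.66 ± 0.14 (SE, adjusted p = 1.87e-06), the largest among the members. Other collagen enzymes moved less: the lysyl hydroxylases PLOD1 and PLOD2 rose by 0.47 and 0.56, the prolyl hydroxylase subunit P4HA2 by 0.44, and LOXL2 fell by 0.47. For P4HA1, the other prolyl hydroxylase subunit, the value was 0.15 (adjusted p = 0.424), and for LOXL1, an elastin crosslinker, 0.47 (adjusted p = 0.0835); neither passed the test.

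Of the secreted factors, the stanniocalcin STC2, a glycoprotein hormone, was at 26.9 and 24.5 CPM in 786-O and 87.6 and 86.2 in 786-M1A (1.72 ± 0.11, adjusted p = 2.32e-05). TGFA was at 336 and 331 CPM in 786-O and 837 and 862 in 786-M1A (1.31 ± 0.14, adjusted p = 0.000258). ADM, the vasodilator peptide adrenomedullin, was at 37.3 and 35.2 CPM in 786-O and 67.6 and 61.7 in 786-M1A (0.80 ± 0.11, adjusted p = 0.00104). All 3 were higher in each 786-M1A library than in either 786-O library. STC1, the related stanniocalcin, did not pass the test (0.33, adjusted p = 0.0674).

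CA12, which sits at the cell surface and hydrates carbon dioxide, was at 261 and 252 CPM in 786-O and 603 and 602 in 786-M1A (1.19 ± 0.10, adjusted p = 0.000108). The circadian and hypoxia repressor BHLHE41 was at 21.1 and 18.8 CPM in 786-O and 50.4 and 48.8 in 786-M1A (1.28 ± 0.10, adjusted p = 7.65e-05). The lipoprotein receptor SCARB1 rose by 0.83, the membrane protein TMEM45A by 0.82, the corepressor subunit SAP30 by 0.76, and the glycogen-targeting phosphatase subunit PPP1R3C by 0.68. CCND1 rose by 0.65, the lipid droplet coat PLIN2 by 0.41 and the mitophagy receptor BNIP3L by 0.40.

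Some targets went the other way. The lipoprotein receptor VLDLR was at 129 and 130.4 CPM in 786-O and 54.6 and 60.02 in 786-M1A (−1.22 ± 0.16, adjusted p = 0.000773). MXI1, an antagonist of MYC, was at 31.3 and 30.7 CPM in 786-O and 13.6 and 15.0 in 786-M1A (−1.16 ± 0.11, adjusted p = 0.00017). The ubiquitin ligase subunit WSB1 fell by 0.99, the mitochondrial protein FAM162A by 0.84, NDRG1 by 0.60, the transcription factor ZNF395 by 0.49, the ribosome quality-control factor ANKZF1 by 0.38 and the mTOR inhibitor DDIT4 by 0.33. The 3 histone demethylases KDM3A, KDM4B and KDM4C had log2 fold changes between −0.16 and −0.01 and did not pass the test. The mitophagy receptor BNIP3 (0.02), the repressor BHLHE40 (0.28) and the HIF antagonist CITED2 (0.08) did not pass it either.

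With any 1 of the 4 libraries left out, fewer members were called, and so were fewer of all genes. LOXL2, P4HA2, PLOD1, PLOD2, BNIP3L, PLIN2, ZNF395, DDIT4, NDRG1 and ANKZF1 lost their call whichever library was left out, PPP1R3C and CCND1 without either 786-O library, and TMEM45A without 786-O replicate 2. Among other HIF targets, 7 of 21 glycolysis genes rose and 2 fell, and 4 of 8 tested angiogenic genes rose and 1 fell.

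OS-LM1 was the only group in which CA9, NDUFA4L2, ANKRD37 and RORA stood above trace levels. CA9, the tumour-associated carbonic anhydrase, was at 22.9 and 26.5 CPM in OS-LM1, with 1007 counts over both libraries. The 2 786-M1A libraries together held 2 counts, a ratio of 1058 (exact 95% counting interval 292 to 8748), and the 2 786-O libraries 7 counts, a ratio of 271 (131 to 675). No count was found in the 4 iMAE-1.1 libraries, where a floor of 3 counts over the group puts OS-LM1 at least 536-fold higher. These intervals cover counting error only.

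NDUFA4L2, a mitochondrial protein that dampens respiration in hypoxia, was at 63.1 and 100.5 CPM in OS-LM1, against 0.399 and 0.0716 in 786-M1A and 0.106 and 0.0995 in 786-O. Over the group it held 3221 counts in OS-LM1 and 21 in 786-M1A. ANKRD37, an ankyrin-repeat protein, was at 1.63 and 2.34 CPM in OS-LM1 and at most 0.622 elsewhere. RORA, a nuclear receptor, was at 1.23 and 0.922 CPM in OS-LM1 and at most 0.324 elsewhere. In none of the 4 genes did OS-LM1 overlap another group. RORA and CA9 reached the level required for testing in the OS-LM1 libraries alone. NDUFA4L2 reached it in the OS-LM1 libraries and otherwise in only 1 library, of 786-M1A. The tests of RORA, CA9 and NDUFA4L2 are therefore not counted as support.

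**Figure D2:**
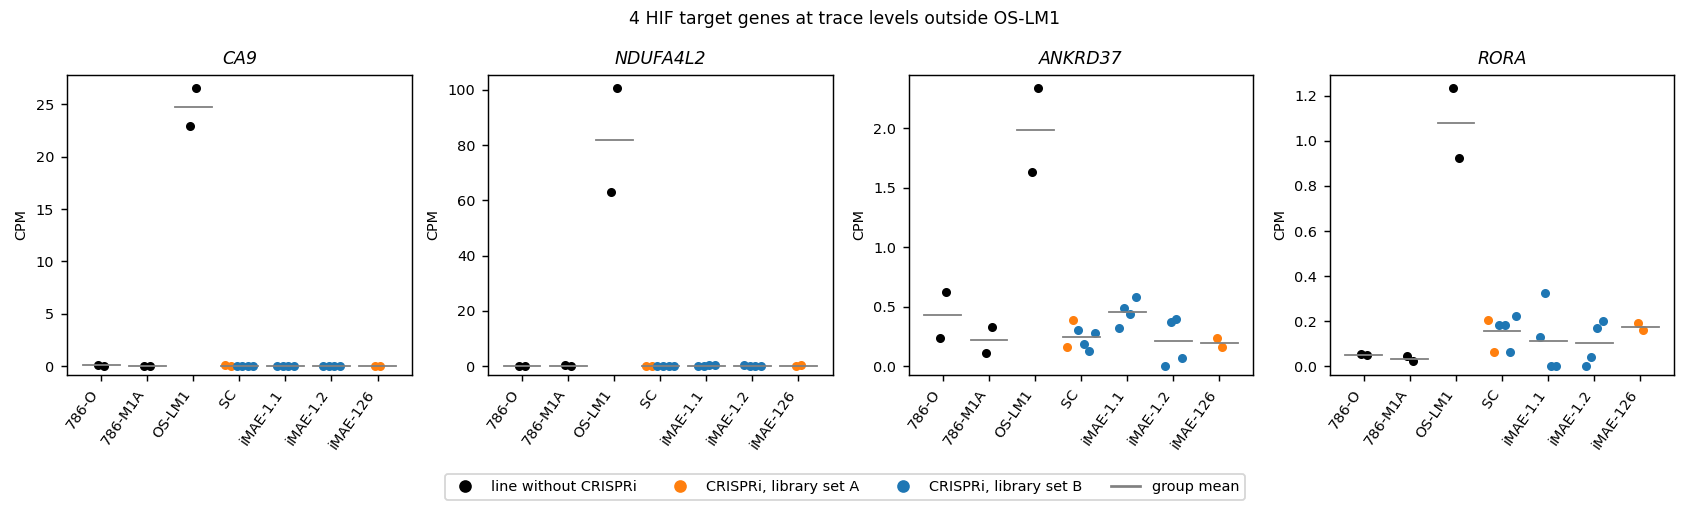
CPM of CA9, NDUFA4L2, ANKRD37 and RORA (linear axes) in each library by group; points are libraries coloured by library set and grey bars are group means. OS-LM1 stands at 22.9 and 26.5 CPM for CA9 and at 63.1 and 100.5 CPM for NDUFA4L2, while all other groups lie near 0.

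Among the other 34 members OS-LM1 differed from 786-M1A in 26, with 13 higher and 13 lower, and from 786-O in 27, with 18 higher and 9 lower. The share over all genes was also broad, 68.7% against 786-M1A (34.4% higher, 34.3% lower) and 63.6% against 786-O (30.4% higher, 33.3% lower). The medians of the 34 were 0.15 and 0.37. Over all 38 members the median against 786-M1A was 0.24. It was 0.07 without OS-LM1 replicate 1 and 0.35 without OS-LM1 replicate 2. DDIT4 was at 487 and 549 CPM in OS-LM1, 145 and 136 in 786-M1A and 173 and 171 in 786-O, and it rose against 786-M1A by 1.89 ± 0.11 (adjusted p = 3.2e-06). PPP1R3C was at 46.0 and 36.7 CPM in OS-LM1, 14.1 and 14.3 in 786-M1A and 8.56 and 8.66 in 786-O (1.55 ± 0.13 against 786-M1A, adjusted p = 2.31e-05). LOXL2 rose against 786-M1A by 1.27, CA12 by 1.09 and WSB1 by 1.52. The largest falls against 786-M1A were in TMEM45A (−2.29), SAP30 (−1.36), CITED2 (−1.17), NDRG1 (−0.99) and TGFA (−0.96).

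The 2 lines 786-M1A and OS-LM1 were each set against the same 786-O libraries, so their changes are not independent of each other. LOX was 3.66 higher in 786-M1A and 4.12 higher in OS-LM1, STC2 1.72 and 2.72, CA12 1.19 and 2.29, and VLDLR had −1.22 and −1.84. SAP30 and TMEM45A were 0.76 and 0.82 higher in 786-M1A but had log2 fold changes of −0.60 and −1.47 in OS-LM1. WSB1 and DDIT4 fell in 786-M1A (−0.99 and −0.33) and rose in OS-LM1 (0.53 and 1.56), the rise of WSB1 losing its call without 786-O replicate 1 (0.44, adjusted p = 0.0678). For these 4 genes the direct comparison of OS-LM1 with 786-M1A passed the test.

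The oxygen-sensing genes also differed between the lines. HIF1A was at 51.9 to 56.9 CPM in OS-LM1, 14.4 to 15.9 in 786-O and 7.61 to 8.40 in 786-M1A, and its log2 fold change in OS-LM1 against 786-M1A was 2.77 (adjusted p = 6.77e-07). EPAS1 was at 141 to 198 CPM in OS-LM1, 141 to 142 in 786-O and 223 to 225 in 786-M1A. EGLN3, itself a HIF target, was at 95.7 and 96.7 CPM in 786-O, 272 and 283 in 786-M1A and 369 and 378 in OS-LM1. The part of HIF1A or EPAS1 in the members' levels was not tested.

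The non-targeting CRISPRi control SC differed from 786-M1A in 22 of the 34 members tested, with 16 lower and 6 higher. CA9, NDUFA4L2, ANKRD37 and RORA were too low to be tested. Across all genes 53% passed, with 25.3% lower and 27.8% higher, and the members' median was −0.42 against 0.07 for all genes. This comparison and that of 786-M1A with 786-O share the 786-M1A libraries. No library set holds both groups, and the labels do not say what parts the sets. The CRISPRi vector and that difference therefore cannot be told apart.

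LOX was at 31.8 and 34.4 CPM in 786-M1A, 7.17 and 9.97 in SC set A and 3.12 to 4.45 in SC set B (−2.49 ± 0.35, adjusted p = 0.00166). TGFA was at 837 and 862 CPM in 786-M1A, 359.6 and 367 in SC set A and 115 to 126.4 in SC set B (−1.97 ± 0.48, adjusted p = 0.0103). STC1 went from 24.1 and 26.6 CPM to 13.2 and 13.6 in set A and 3.05 to 3.76 in set B (−1.80 ± 0.59, adjusted p = 0.0308). In each of these genes the order 786-M1A, SC set A, SC set B held with no overlap.

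PPP1R3C was at 14.1 and 14.3 CPM in 786-M1A, 6.39 and 9.45 in set A and 1.76 to 2.57 in set B (−1.65, adjusted p = 0.0301). P4HA1 was at 209 and 218 CPM, then 101 and 106, then 65.7 to 75.7 (−1.30, adjusted p = 0.00197). PLOD2 was at 984 and 1064 CPM, then 503 and 604, then 356 to 409.7 (−1.14, adjusted p = 0.00322). CCND1 was at 839.6 and 842 CPM, then 513 in both libraries of set A, then 271 to 303 (−1.11, adjusted p = 0.00966). These again fell in 2 steps, from 786-M1A to set A and from set A to set B.

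Of the 6 genes that were higher in SC, LOXL1, WSB1 and FAM162A rose in 2 steps. LOXL1 was at 8.87 and 7.23 CPM in 786-M1A, 11.9 and 15.1 in SC set A and 41.8 to 48.1 in SC set B (2.21 ± 0.59, adjusted p = 0.0144). WSB1 was at 57.3 and 55.2 CPM, then 89.4 and 95.1, then 182 to 231 (1.67 ± 0.39, adjusted p = 0.00871). FAM162A was at 7.92 and 10.7 CPM, then 14.1 and 14.3, then 17.3 to 22.9 (1.08 ± 0.23, adjusted p = 0.00596). MXI1 rose by 0.81, ANKZF1 by 0.59 and DDIT4 by 0.48, and in these 3 set B did not lie wholly above set A. LOX, P4HA1, PLOD2 and MXI1 kept their call whichever library was left out. TGFA, CCND1, LOXL1 and WSB1 lost it without either 786-M1A library (adjusted p = 0.0577 to 0.112), FAM162A without 786-M1A replicate 1, and ANKZF1 and DDIT4 without 786-M1A replicate 2. STC1 lost it without either 786-M1A library or any of SC replicates 3 to 6 (up to 0.141), and PPP1R3C without either 786-M1A library or SC replicate 3, 4 or 6 (up to 0.13).

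Altogether 19 of the 34 members were lower at each of the 2 steps with no overlap, as were 22.5% of all genes tested, and 3 were higher at each, as were 14% of all genes. SC set B against set A, which carry the same guide, gave 27 of 34 members called, 20 lower and 7 higher, where 45.2% of all genes passed (22.1% higher, 23.1% lower). NDRG1 showed the widest gap, 391 and 398 CPM in set A and 75.0 to 89.1 in set B (−2.26 ± 0.16, adjusted p = 5.72e-08), against 542 and 501 in 786-M1A. For NDRG1 the comparison of all SC libraries with 786-M1A, which pools the sets, did not pass (−1.37 ± 0.70, adjusted p = 0.12). Each set alone passed against 786-M1A, with −0.30 in set A (adjusted p = 0.00108) and −2.60 in set B (adjusted p = 4.78e-26). EPAS1 moved beside the members, at 223 to 225 CPM in 786-M1A, 108 to 123 in set A and 44.0 to 48.7 in set B, as did EGLN3, at 272 to 283, then 145, then 34.04 to 39.7. HIF1A stayed between 6.84 and 8.90 CPM in both SC sets. ARNT was at 60.1 to 61.2 CPM in 786-M1A, 50.3 to 53.8 in set A and 33.7 to 36.7 in set B. EGLN1 was at 91.2 to 94.3, then 60.4 to 60.8, then 48.9 to 53.6. VHL rose, from 60.1 to 61.0 CPM, to 62.8 to 65.7, then to 93.7 to 100.9. Of the 10 oxygen-sensing genes, 7 were called lower and 1 higher in set B against set A. The part of these genes in the members' levels was not tested.

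Gene length moved with the sets as well. Over the 34 members, length and the log2 fold change of set B against set A had a Spearman correlation of −0.40, and over all 15254 genes it was −0.32. With all genes split into 4 equal parts by length, from short to long, the members' medians were −0.01, −0.11, −0.67 and −0.50 and those of all genes 0.25, 0.09, −0.02 and −0.24. The gap was widest among genes of 2818 to 4363 bases, which hold 14 members. The part of read coverage in the members' shifts was not tested. Against 786-M1A, SC replicates 1 and 2 alone gave 16 of 35 members lower and 6 higher with a median of −0.14, where 27.2% of all genes were lower and 24.1% higher. SC replicates 3 to 6 alone gave 24 of 34 lower and 8 higher with a median of −0.69, where 39.4% of all genes were lower and 39.7% higher. With all SC libraries but without 786-M1A replicate 1 or 2, fewer members were called, and so were fewer of all genes.

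**Figure D3:**
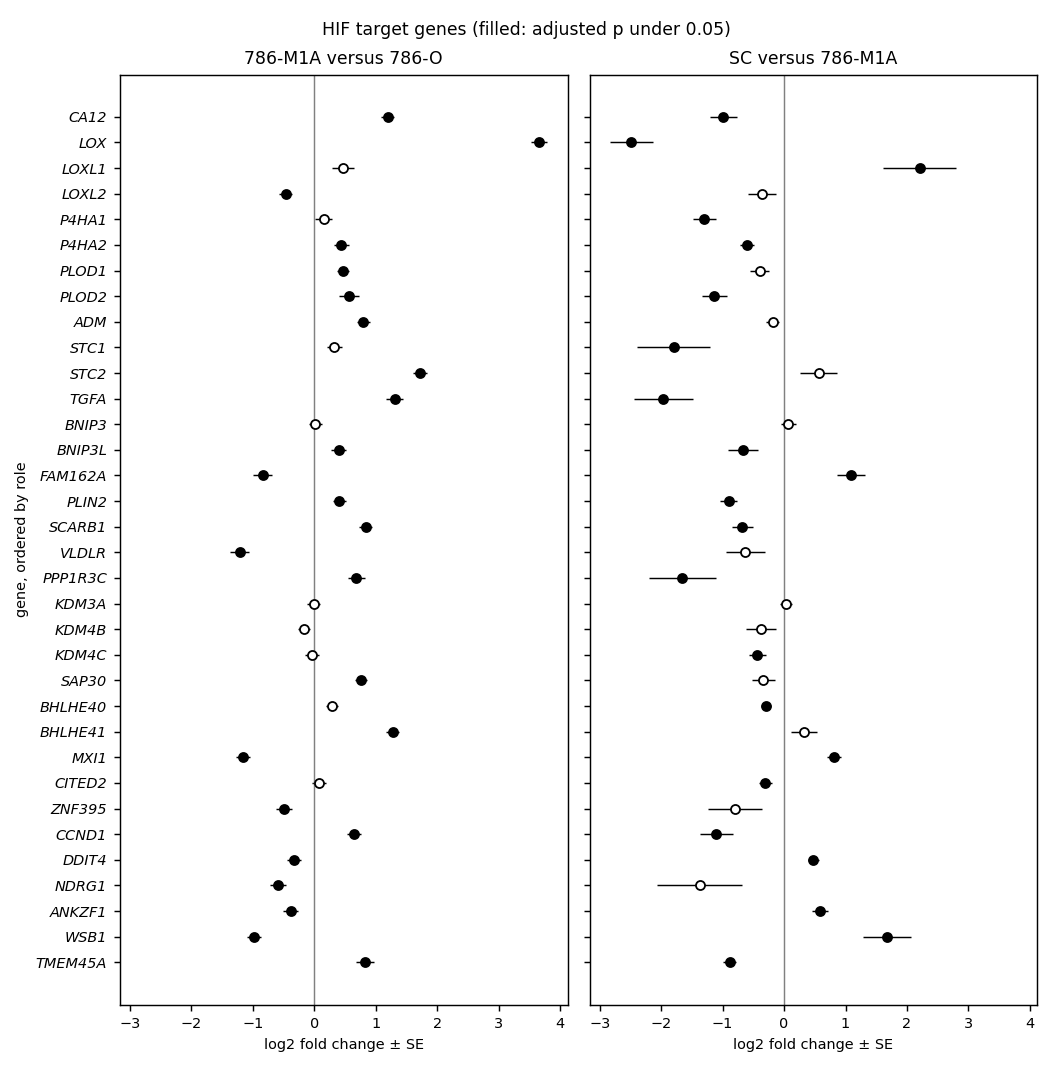
Log2 fold change with its SE for the 34 members tested in both comparisons, 786-M1A against 786-O on the left and SC against 786-M1A on the right; filled points passed the test. LOX lies at 3.66 on the left and −2.49 on the right, and WSB1 at −0.99 and 1.67; both comparisons share the 786-M1A libraries.

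Both iMAE-1 guides moved the same 5 members against SC. With library set as a term, which in effect sets these guides against SC replicates 3 to 6, iMAE-1.1 called 5 of 34 members and iMAE-1.2 called 7. Across all genes 1.79% passed under iMAE-1.1 (0.911% higher, 0.878% lower) and 2.73% under iMAE-1.2 (1.39% higher, 1.34% lower). ADM, STC1, TGFA and CCND1 rose and CITED2 fell under each guide, and CA12 and NDRG1 rose in addition under iMAE-1.2. The 2 comparisons share the SC libraries. The members' medians were 0.02 and 0.06, and those of all genes 0.0037 and 0.0043.

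ADM was at 77.9 to 83.7 CPM under iMAE-1.1 and 65.3 to 94.3 under iMAE-1.2, against 47.1 to 55.6 in SC set B and 60.8 and 52.2 in SC set A. Every iMAE-1 library was above every SC library of either set. Its log2 fold change was 0.65 ± 0.10 (adjusted p = 0.00191) under iMAE-1.1 and 0.63 ± 0.10 (adjusted p = 0.00213) under iMAE-1.2. Without the set term ADM had 0.60 and 0.58.

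STC1 was at 8.09, 9.81, 5.96 and 7.89 CPM under iMAE-1.1 and 9.41, 11.1, 8.44 and 10.1 under iMAE-1.2, against 3.05 to 3.76 in SC set B and 13.2 and 13.6 in set A. It rose by 1.27 ± 0.15 (adjusted p = 9.8e-05) and 1.58 ± 0.15 (adjusted p = 3.46e-06). TGFA was at 182, 178, 184 and 170.3 CPM under iMAE-1.1 and 169.9, 209, 187 and 187 under iMAE-1.2, against 115 to 126.4 in set B and 359.6 and 367 in set A. It rose by 0.56 ± 0.06 (adjusted p = 5.62e-05) and 0.64 ± 0.06 (adjusted p = 7.58e-06). CCND1 was at 414, 412, 434 and 398 CPM under iMAE-1.1 and 398, 452, 419.6 and 395 under iMAE-1.2, against 271 to 303 in set B and 513 in both libraries of set A. It rose by 0.53 ± 0.06 (adjusted p = 3.16e-05) and 0.54 ± 0.06 (adjusted p = 1.95e-05). In these 3 genes the iMAE-1 libraries lay between the SC sets, so the rise holds against SC of their own set only. Without the set term the log2 fold change of TGFA was −0.18 and −0.10, and STC1 and CCND1 were not called.

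CITED2, which competes with HIF for its coactivators, was at 80.3, 76.5, 92.3 and 94.99 CPM under iMAE-1.1 and 86.9, 93.7, 82.3 and 84.7 under iMAE-1.2, against 105 to 114 in SC set B and 91.4 and 96.3 in set A. It fell by 0.36 (adjusted p = 0.0101) and 0.34 (adjusted p = 0.0111), with no overlap with set B but with overlap with set A. NDRG1 was at 102 to 112 CPM under iMAE-1.1 and 127, 178, 106 and 96.3 under iMAE-1.2, against 75.0 to 89.1 in set B. It passed the test under iMAE-1.2 (0.63 ± 0.14, adjusted p = 0.0295) and not under iMAE-1.1 (0.40 ± 0.14, adjusted p = 0.21). CA12 had values of 0.30 (adjusted p = 0.021) and 0.24 (adjusted p = 0.0815) in the same order. The guides compared directly gave 0 of 34 members and 0 genes called by edgeR, with 1 member and 218 genes at an unadjusted p under 0.05, so no difference between the guides in NDRG1 or CA12 was shown. Under iMAE-1.2 NDRG1 lost its call without any of SC replicates 3 to 6 or iMAE-1.2 replicate 1 (adjusted p up to 0.084), and CA12 without SC replicate 3 or 5 or iMAE-1.2 replicate 2 or 4 (up to 0.0786). Both also lost it without the set term, and NDRG1 with no filter on low counts (0.0637) and in a fit of the compared libraries alone (0.127).

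The 5 shared calls were made in every fit with 1 library left out, and in block 1 alone and block 2 alone. With the replicate number as a term 0 of them were called under iMAE-1.1 and 3 under iMAE-1.2, ADM and CITED2 being missed under both (adjusted p = 0.268 to 0.652). That fit called 6 of all 15676 genes under iMAE-1.1 and 10 under iMAE-1.2. The main fit called 273 and 417 of 15254. Several members differed by block instead of by guide: in 14 of 34 the 4 libraries of block 1 did not overlap those of block 2, 3 being higher in block 1 and 11 in block 2. Of all genes 25.5% did not overlap, 12.5% being higher in block 1 and 13% in block 2, and the blocks were defined from all genes. LOXL1 was at 15.0 to 16.4 CPM in block 1 and 24.6 to 30.4 in block 2, both under SC set B at 41.8 to 48.1. It missed the threshold under both guides (−0.997, adjusted p = 0.0841, and −1.06, adjusted p = 0.055), and with the block as a term it was called (−1.09, adjusted p = 2.87e-10, and −1.11, adjusted p = 1.97e-10). LOX was at 3.08 to 4.501 CPM in block 1, overlapping the SC set B range of 3.12 to 4.45, and at 6.52 to 8.73 in block 2. The blocks were found in these same data, and what sets them apart was not tested.

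**Figure D4:**
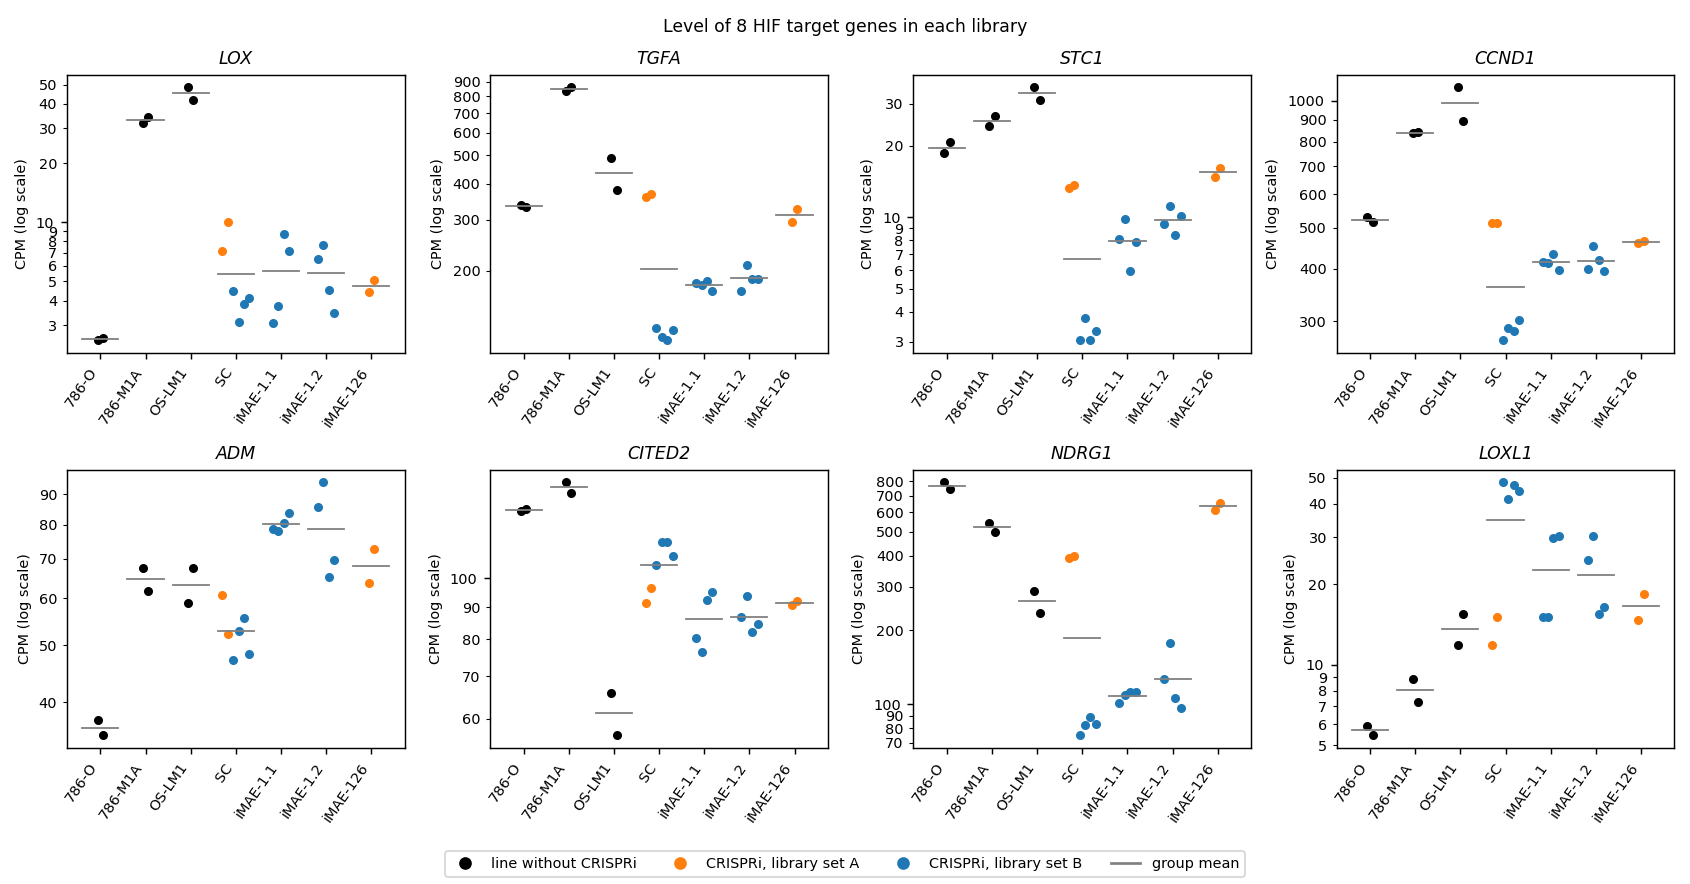
CPM on a log axis for LOX, TGFA, STC1, CCND1, ADM, CITED2, NDRG1 and LOXL1 in each library by group; points are libraries coloured by library set and grey bars are group means. For TGFA the iMAE-1 libraries at 169.9 to 209 CPM lie above SC set B (115 to 126.4) and below SC set A (359.6 and 367), while for ADM they lie above both.

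The guide iMAE-126 called 7 of 34 members against SC, 4 higher and 3 lower, where 16.7% of all genes passed (6.31% higher, 10.4% lower). The members' share is thus near that of all genes, and their median was −0.04. With 2 libraries of set A, this guide is in effect compared with SC replicates 1 and 2. NDRG1 was at 615 and 654 CPM under iMAE-126 and 391 and 398 in SC set A (0.69 ± 0.19, adjusted p = 0.0258). DDIT4 was at 279 and 293 CPM against 190.0 in both libraries of set A and 165 to 187 in set B (0.59 ± 0.19, adjusted p = 0.0431). ZNF395 was at 214 and 231 CPM against 161 and 169 (0.43 ± 0.10, adjusted p = 0.00941), and WSB1 at 127 and 120.4 against 89.4 and 95.1 (0.42 ± 0.12, adjusted p = 0.0248). All 4 were above set A in both libraries.

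Of those that fell, STC2 was at 46.3 and 47.6 CPM under iMAE-126 and 79.7 and 67.9 in SC set A (−0.65 ± 0.20, adjusted p = 0.0373). SAP30 was at 22.7 and 25.8 CPM against 35.2 and 31.6 (−0.46 ± 0.12, adjusted p = 0.0164), and PLOD2 at 446 and 451 against 503 and 604 (−0.30 ± 0.10, adjusted p = 0.0478). Each of the 7 calls was lost when at least 1 library was left out. Without SC replicate 1, SC replicate 2 or either iMAE-126 library, fewer members were called, and so were fewer of all genes. None of the 5 members shared by the iMAE-1 guides was called here, with ADM at 0.27 (adjusted p = 0.189) and STC1 at 0.21 (adjusted p = 0.451). The difference between iMAE-126 and the iMAE-1 guides was not tested.

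**Figure D5:**
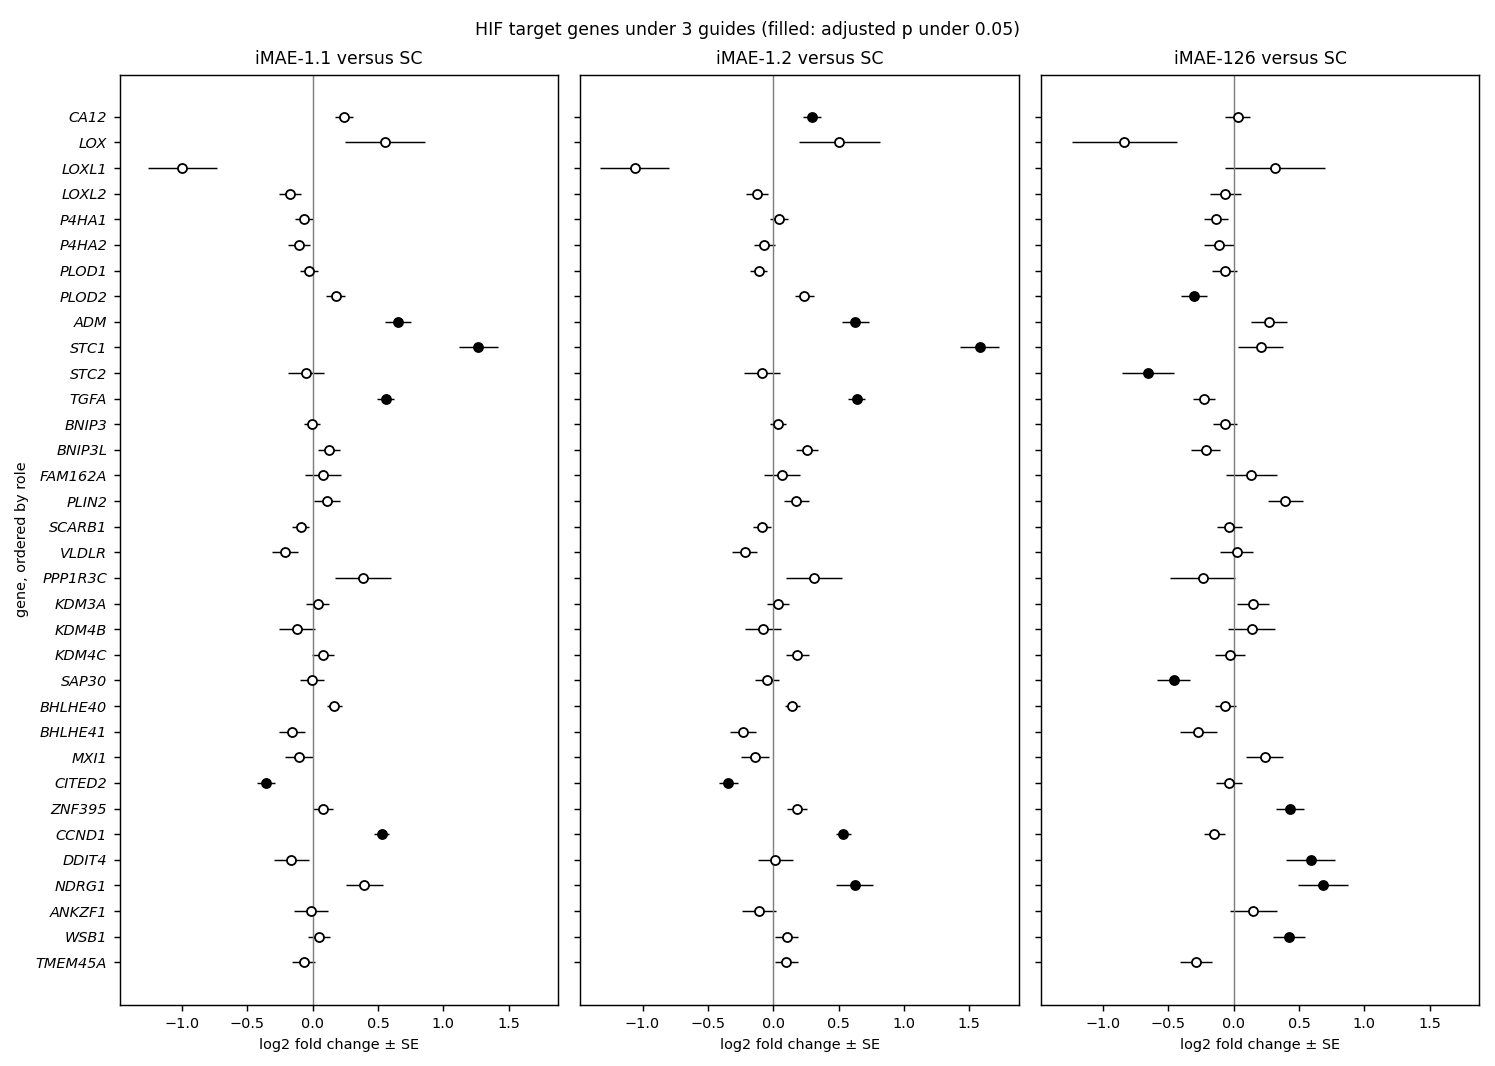
Log2 fold change against SC with its SE for 34 members under each of the 3 guides, iMAE-1.1 on the left and iMAE-126 on the right, with library set as a term; filled points passed the test. STC1 lies at 1.27, 1.58 and 0.21 and CITED2 at −0.36, −0.34 and −0.04 from left to right.

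None of the 10 oxygen-sensing genes was called under any guide by edgeR, HIF1A, EPAS1, ARNT, VHL, EGLN1 and EGLN3 among them. EPAS1 had log2 fold changes of −0.0035 and 0.03 under the iMAE-1 guides and 0.02 under iMAE-126, and EGLN3, with more spread, had 0.45, 0.68 and 0.01. Of 21 glycolysis genes regulated by HIF, 2 were higher under each iMAE-1 guide, and 1 was higher and 2 were lower under iMAE-126. Of 9 angiogenic targets, 1 was higher under iMAE-1.1, 2 were higher under iMAE-1.2, and 1 was lower under iMAE-126.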

How the data were processed

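Poly(A) RNA was made into stranded libraries by dUTP marking, as the labels' protocols state. Bowtie2, RSEM and the build hg19 are named in the submitters' processing notes, with versions and strand setting not given in the sources used here. Expected counts were estimated by the authors for each gene symbol, per the file headers. Deposited TPM values were computed by the authors per gene length, per the file headers, and the deposited effective lengths equal the gene lengths.

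Rounded expected counts were tested with edgeR 4.0.16 in R 4.3.3 (TMM; filterByExpr, minimum count 10; robust quasi-likelihood fit; Benjamini-Hochberg over all genes, called at 0.05). There were 3 fits: the lines (6 libraries), SC with 786-M1A (8), and CRISPRi (16, with library set as a term). CPM used TMM factors over all 22 libraries. Folds of genes with few counts are count ratios with exact intervals at 95% confidence.

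The members, gene lists and tests were chosen with earlier results of these data known. Values by library are given for members called with an absolute log2 fold change of at least 1 and no overlap in 786-M1A against 786-O or SC against 786-M1A, for those called under both iMAE-1 guides or under iMAE-126, and for CA9; others given by library were chosen after their values were seen. Alternatives were DESeq2 1.42.0, RLE factors, other filters, limma 3.58.1 on log2(TPM + 1), the replicate block, single groups, and each library left out. The iMAE-1 blocks, the mean-length term, the crossed block and TPM without mitochondrial symbols were added after seeing the data. The fits were also run on simulated counts with a fixed spread and no effect of library set, block or gene length. That run cannot show how the fits handle those features. Tables were made with Python 3.11.15 and pandas 2.3.3.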

Additional observations from a re-analysis of the deposited data

Results flagged for a closer look

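The mitophagy receptor BNIP3L was at 42.5 CPM in iMAE-1.2 replicate 1, apart from the other 3 libraries of that guide, which lay between 46.6 and 47.2 CPM. The gap was large for a group of 4. It was the single such value among 102 groups of values examined, where chance alone marks about 1 in 20. SC was examined over both library sets and each iMAE-1 guide over both blocks, which widens the range within a group. The low number of flags therefore does not show that replicates were even.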

How the results depend on the processing

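DESeq2, RLE factors, limma on log2(TPM + 1), a filter at 50 counts and 1 fit over all 22 libraries kept the number of called members within 1.5 times of the reported one in every comparison. Over all members, comparisons and alternatives, 4853 values kept their call or lack of one, 228 lost the call and 139 gained one. In 8 the sign reversed with a call in either fit. A change of sign with a call in neither fit was counted among the 4853. Leaving out 1 library gave 12 to 15 called members for 786-M1A against 786-O, 21 to 34 for OS-LM1 against 786-M1A, 25 to 33 for OS-LM1 against 786-O and 8 to 28 for SC against 786-M1A. It gave 5 in each case for iMAE-1.1, 5 to 7 for iMAE-1.2 and 1 to 6 for iMAE-126. Where a group is left with 1 library, its spread is taken from the other groups. Leaving out a 786-O or 786-M1A library lowered the calls over all genes as well. The counts for OS-LM1 in this section cover all 38 members, CA9, NDUFA4L2, ANKRD37 and RORA included. The main fit called 30 of the 38 against 786-M1A and 31 against 786-O. Same-numbered deviations correlated from −0.60 to 0.24, and between the iMAE-1 guides from −0.60 to −0.28. Where the deviations rest on 2 libraries each, replicates 1 and 2 give the same value, and some pairs crossed library sets. Whether the replicate numbers pair the samples could thus not be settled. With the replicate block the calls were 22 for 786-M1A against 786-O, 29 and 30 for OS-LM1, 25 for SC against 786-M1A, 0 for iMAE-1.1, 3 for iMAE-1.2 (STC1, TGFA and CCND1) and 5 for iMAE-126, and in SC against 786-M1A STC2 reversed to −0.13 and BNIP3 to −0.14, the cause of which was not tested. Of all 15676 genes in the CRISPRi fit with the replicate block, 6 were called for iMAE-1.1, 10 for iMAE-1.2 and 1356 for iMAE-126. The crossed replicate block gave 27 calls for 786-M1A against 786-O and 30 for OS-LM1 against each of the other lines. Without the library set term 1 member was called under each iMAE-1 guide, and there TGFA reversed to −0.18 (iMAE-1.1) and −0.10 (iMAE-1.2), NDRG1 to −0.56 (iMAE-1.2), PLOD2 to 0.052 and WSB1 to −0.43 (both iMAE-126). Block 1 alone gave 14 and 17 calls for iMAE-1.1 and iMAE-1.2, where 12.2% and 14.7% of all genes were called, and block 2 alone 10 and 13, where 4.81% and 11.4% were. The stress gene DDIT4 reversed to −0.33 under iMAE-1.2 in block 1 (adjusted p = 0.000744 in edgeR), and block 2 alone called 1 member between the guides. For iMAE-126 the calls were 4 with no filter, 2 with a mean-length term (added after seeing the data) and 11 with the groups alone. Over all genes these fits called 2215 of 21307, 736 of 15254 and 3636 of 14941, and the main fit 2550 of 15254. The cause was not tested. For SC against 786-M1A, limma on TPM moved the median of all genes from 0.07 to −0.17, with 2490 genes higher and 5006 lower against 4100 and 3732, and the members' median to −0.67. On TPM without mitochondrial symbols, 1541 genes were higher and 3018 lower in 786-M1A against 786-O, where counts gave 2397 and 2667. Limma on TPM called 4 members higher and 2 lower under iMAE-1.1 and 6 and 2 under iMAE-1.2, where edgeR called 4 and 1, and 6 and 1. Members under about 1 CPM, CA9 in most groups among them, are limited by depth.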
